A study of Mus musculus with 12 samples.

Results

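The Myc, Max and Mxd network was followed in 3T3-L1 cells, a mouse fibroblast line that turns into adipocytes in culture, before and 6 h after hormonal induction. Its members were taken as every non-control array probe whose transcript accession belongs to Myc, Mycn, Max, Mxd1, Mxd3, Mxd4, Mxi1, Mnt, Mlx or Mga. The rule found 17 probes of 10 genes among 41174 probes, of which those with a gene symbol belong to 18213 genes: 3 each of Myc and Mga, 2 each of Mycn, Mxd1 and Mxd3, and 1 of each other gene. RNA was taken from 4 groups with 3 replicates each, which made 12 one-colour arrays. Cells of np_0h and p_0h were uninduced, and cells of np_6h and p_6h had received insulin (5 µg/ml), dexamethasone (1 µM) and the phosphodiesterase inhibitor IBMX (0.5 mM) for 6 h. In the groups named np the pooled sucrose gradient fractions 5 to 7 hold non-polysomal RNA, and in those named p the fractions 9 to 11 hold polysomal RNA. All groups are of this single line, which is a culture model of the preadipocyte. By the methods the hormones came in medium with fetal bovine serum, whereas the cells had been grown in newborn bovine serum. No uninduced culture at 6 h was analysed here, so hormones, fresh medium, serum and elapsed time cannot be told apart.

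Myc is a basic helix-loop-helix leucine zipper protein that binds DNA only as a dimer with Max, and the dimer recruits acetyltransferases to promoters of growth genes. The Mxd proteins, Mxi1 and Mnt also pair with Max, occupy the same E-box and recruit the Sin3 and histone deacetylase corepressors, so each competes with Myc for its partner and its sites. Mlx is a second dimerization partner that joins some Mxd proteins, Mnt and the glucose-responsive Mlxip and Mlxipl, whereas Mga binds Max as part of a Polycomb complex. Myc mRNA is short-lived and answers quickly to serum and hormones, and Myc is known to hold back terminal differentiation of preadipocytes, in which the mitotic clonal expansion after hormone addition comes first.

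Signals are log2 of the background-subtracted intensity, scaled between arrays by 10 spike-in transcripts, and differences are in log2 units. M is the polysomal minus the non-polysomal signal at 6 h, less the same difference at 0 h. Between 55.7% and 60.8% of the probes were well above background on an array. All 14 probes of Myc, Max, Mxd1, Mxd3, Mxd4, Mxi1, Mnt, Mlx and the brighter 2 of Mga were well above background on every array, and the 2 Mycn probes and the third Mga probe were not. All 15 probes of 8 fibroblast genes were well above background in every group, against 1 of 6 probes of leukocyte genes and, in 3 of the 4 groups, 0 of 4 of endothelial genes. In p_6h 1 endothelial probe, of Cdh5 (A_52_P248604), was above background, with a polysomal change of 3.62 (adjusted p = 2.93e-07), and in every group 1 of 4 probes of epithelial genes was, and the part of both in the results was not tested. Of 9 probes of adipocyte genes 6 were above background in every group. The summed signal of the 9, mostly of bright Fabp4 probes, was 83620 to 99350 in p_0h and 165000 to 171900 in p_6h. It was 39750 to 41700 in np_0h and 37890 to 38600 in np_6h. In polysomal RNA 7 of the 9, some below background, were higher at 6 h and 1, of Plin1, lower (-0.91, adjusted p = 0.000111). The fibroblast probes summed to 762400 to 824500 in p_0h and 1204000 to 1223000 in p_6h. The part of these changes in the results below was not tested. The dimmer 5 spike-ins were lower in p_6h than on the other arrays by 0.76 to 0.91, and scaling by all 10 set the median M of all probes at 0.49. That median was 0.06 with scaling to the 75th percentile of each array, 0.00 with quantile normalization, 0.94 with the dimmer 5 spike-ins alone and 0.52 with the deposited log2 values. The median change in polysomal RNA was 0.54 with the spike-ins and 0.05 with the 75th percentile, while in non-polysomal RNA both were near 0, at 0.04 and -0.02. Values below are spike-in scaled, and the 75th percentile value is given where it turns a direction or ends a call.

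The letters that the dimers read can be seen in the promoters of the network itself. The E-box CACGTG, which is its own reverse complement, was searched for in the RefSeq promoter windows of build GRCm38.p6, from 250 bases before to 50 bases after a transcript start. It stood in the windows of 4 of the 9 members that have one (44.4%), Max, Mlx, Mnt and Mxd4, against 8.09% of all 27025 genes in the table and 9.94% of the genes on the array that have a window. The 30 bases around each match are shown with the E-box in capitals, because these are the sites at which network dimers could meet their own genes. Distances are those of the first base of a match, so the match in Max spans the transcript start.
Max, chr12:76962234-76962263, minus strand, match 3 bases before the start: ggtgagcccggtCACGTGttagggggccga
Mlx, chr11:101087238-101087267, plus strand, match 40 bases before the start: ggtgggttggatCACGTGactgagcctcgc
Mnt, chr11:74830789-74830818, plus strand, match 123 bases before the start: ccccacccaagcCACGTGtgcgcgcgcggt
Mxd4, chr5:34187912-34187941, minus strand, match 219 bases before the start: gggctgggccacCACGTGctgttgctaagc
A match is a description of letters, and binding was not measured here. Of these 4 genes, Max and Mlx rose in both fractions, Mnt fell in both (in polysomal RNA not with the dimmer spike-ins, at 0.03), and Mxd4 passed the test in neither, so the genes with the hexamer did not move together. The windows of Mycn, Mxd1, Mxd3, Mxi1 and Mga did not hold these letters. Myc itself had no window and was not searched.

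Induction was followed by a rise of Myc, Mxd1, Max, Mxi1 and Mlx RNA in both fractions. It was followed by a fall of Mxd3 and Mnt RNA in both. The polysomal fall of Mnt was not seen with the dimmer spike-ins, and that of the second Mxd3 probe did not pass with them (-0.41, adjusted p = 0.0645). In polysomal RNA 9 of the 17 probes were higher at 6 h and 4 lower at an adjusted p below 0.05, where 50.6% and 11.7% of all probes were. Of these, 8 were higher by more than 1, a size that 19.2% of all probes passed. In non-polysomal RNA 10 probes were higher and 3 lower, where 20.5% and 19.7% of all probes were. These shares are over all probes, of which 25026 of 41174 were well above background on every array of at least 1 group. Shares over those detected probes alone were not computed. The members' median change was 1.25 in polysomal RNA and 0.55 in non-polysomal RNA, where that of the detected probes was 0.53 and -0.01. M was above 0 for 9 probes and below 0 for 2, where 32.1% and 3.98% of all probes were, and the members' median M of 0.56 lay near the 0.49 of all probes. With 75th percentile scaling M was above 0 for 5 probes and below 0 for 2, where 15.7% and 12.8% of all probes were. The M calls of the 3 Myc probes, the brighter Mxd1 probe, Mxi1 and 2 Mga probes stood under all 20 alternatives run, and those of Max, the brighter Mxd3 probe, Mnt and Mlx were lost with the 75th percentile. In bulk RNA more transcript in each cell and more cells that carry it cannot be told apart.

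**Figure D1:**
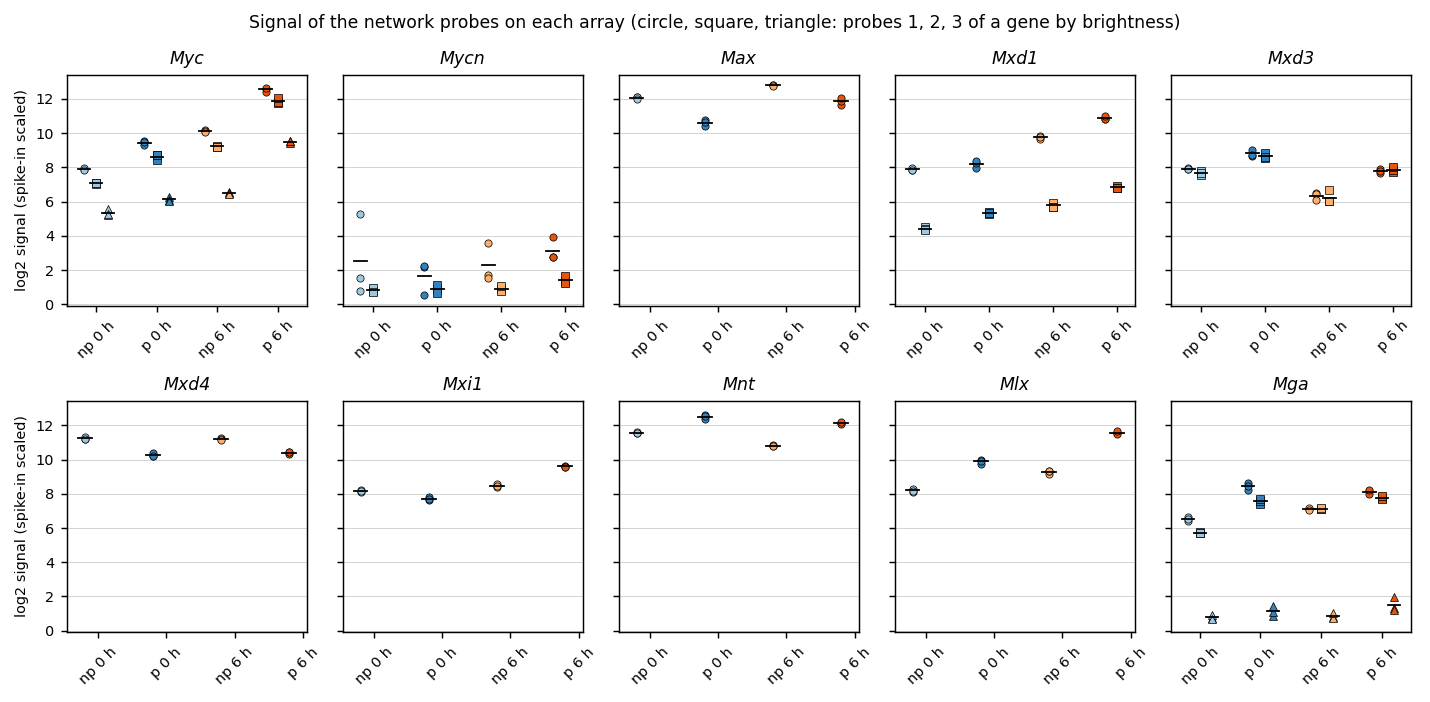
Log2 signal (vertical axis, spike-in scaled) of each of the 17 probes on the 12 arrays, by gene and by group (np non-polysomal, p polysomal). Points are arrays and short lines are means of 3. The Myc probes climb from np_0h to p_6h, and the 2 Mycn probes and the third Mga probe lie near the floor.

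Myc, the activating member, rose more than any other gene of the network in polysomal RNA. The brightest of its probes (A_51_P102096) read 7.92, 7.97 and 7.85 in np_0h, 9.29, 9.52 and 9.51 in p_0h, 10.18, 10.14 and 10.07 in np_6h and 12.58, 12.44 and 12.65 in p_6h. No array of a group overlapped with another group, and the order was np_0h, p_0h, np_6h, p_6h. The polysomal signal was 8.67-fold higher at 6 h (3.12 ± 0.09, SE, adjusted p = 3.03e-09) and the non-polysomal signal 4.66-fold higher (2.22 ± 0.09, adjusted p = 4.38e-08). M was 0.90 ± 0.13 (adjusted p = 0.000425), with 1.03, 0.74 and 0.92 on the 3 slides, each of which held 1 array of every group.

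The other Myc probes gave the same direction with other sizes. Probe A_52_P108346 changed by 3.24 in polysomal RNA, more than 99.2% of all probes, and by 2.15 in non-polysomal RNA, with an M of 1.08 ± 0.14 (adjusted p = 0.00027). Probe A_52_P278549, the dimmest of the 3, rose from 6.29, 6.11 and 6.04 in p_0h to 9.53, 9.43 and 9.57 in p_6h, but only from 5.22, 5.56 and 5.28 in np_0h to 6.58, 6.53 and 6.48 in np_6h. The probes therefore read nearly the same polysomal change, 3.12 to 3.36, and disagreed on the non-polysomal change, 1.17 against 2.15 and 2.22. The M of this probe was 2.19 ± 0.15 (adjusted p = 6.48e-06), above that of 98.4% of all probes, and 1.89, 2.36 and 2.33 by slide. With 75th percentile scaling the M of the 3 probes was 0.47, 0.66 and 1.77, and all passed the test. At 0 h the polysomal signal of this probe was 0.79 above the non-polysomal one, and with the 75th percentile 0.10 below it.

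Mycn, the paralog of Myc in neural and other embryonic tissue, was close to background. Probe A_52_P536494 was not well above background on any array, at 0.64 to 1.67. Its polysomal change of 0.54 (adjusted p = 0.0107) was that of the median probe and 0.05 with 75th percentile scaling. Probe A_51_P497332 was well above background on 1 array each of np_0h, np_6h and p_6h, and it read 0.79, 5.29 and 1.52 in np_0h against 2.76, 3.93 and 2.75 in p_6h. These arrays scatter more than the groups differ, and its M of 1.73 ± 1.55 did not pass (adjusted p = 0.387).

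Max, the obligate partner of Myc and of its antagonists, rose less than Myc. It read 10.41, 10.79 and 10.63 in p_0h and 11.62, 11.90 and 12.08 in p_6h, a change of 1.25 ± 0.13 or 2.38-fold (adjusted p = 1.41e-05). The non-polysomal signal went from 12.12, 12.12 and 11.98 to 12.81, 12.79 and 12.78, a change of 0.72 ± 0.13 (adjusted p = 0.000977). Neither pair of groups overlapped. Unlike Myc, Max was lower in the polysomal than in the non-polysomal pool at both times, by 1.46 at 0 h and by 0.93 at 6 h, and only 7.22% and 7.27% of all probes lay lower. Its M of 0.53 ± 0.18 (adjusted p = 0.0447) was close to the median of all probes. The call was lost on leaving out any of 10 of the 12 arrays, all but replicate 2 of p_0h and replicate 1 of p_6h, where M was 0.42 to 0.58 and the adjusted p 0.0513 to 0.0885, and M was 0.11 with the 75th percentile. It was also lost with the replicate number as a block (adjusted p = 0.0526).

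Among the antagonists Mxd1, which is known from cells leaving the cell cycle, rose with Myc. The brighter probe (A_51_P490795) read 7.88, 7.95 and 7.86 in np_0h, 7.99, 8.26 and 8.37 in p_0h, 9.69, 9.82 and 9.78 in np_6h and 10.86, 10.82 and 11.02 in p_6h. The 6 h arrays lay above the 0 h arrays in both fractions, by 2.69 ± 0.10 or 6.46-fold in polysomal RNA (adjusted p = 1.49e-08) and by 1.86 ± 0.10 or 3.64-fold in non-polysomal RNA (adjusted p = 3.07e-07). The second probe (A_51_P388607) rose 2.82-fold and 2.55-fold. The probes did not give the same shift between fractions: M was 0.83 ± 0.15 (adjusted p = 0.00162) for the brighter and 0.14 ± 0.11 (adjusted p = 0.328) for the other, which was -0.28 with the 75th percentile.

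Mxi1, the Mxd-type repressor also named Mxd2, rose mainly in the polysomal pool. It read 8.13, 8.21 and 8.14 in np_0h, 7.62, 7.78 and 7.70 in p_0h, 8.54, 8.42 and 8.43 in np_6h and 9.64, 9.58 and 9.59 in p_6h. The polysomal arrays were the lowest at 0 h and the highest at 6 h. The polysomal signal rose 3.73-fold (1.90 ± 0.07, adjusted p = 1.13e-08) and the non-polysomal signal 1.23-fold (0.30 ± 0.07, adjusted p = 0.00538). M was 1.60 ± 0.10 (adjusted p = 4.05e-06), higher than that of 94.3% of all probes, and 1.60, 1.59 and 1.60 by slide. At 0 h the polysomal signal was 0.46 below the non-polysomal one, and below it under every alternative, whereas at 6 h it was 1.14 above it with the spike-ins and 0.17 below it with the 75th percentile. With the 75th percentile M was 1.17 and passed the test.

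Mxd3, which is known from proliferating cells in S phase, fell. The brighter probe (A_51_P315530) read 8.70, 9.03 and 8.73 in p_0h and 7.66, 7.92 and 7.78 in p_6h, and 7.91, 7.99 and 7.90 in np_0h and 6.49, 6.44 and 6.09 in np_6h. The 6 h arrays were lower in both fractions without overlap, 2.04-fold in polysomal RNA (-1.03 ± 0.13, adjusted p = 6.82e-05) and 3.02-fold in non-polysomal RNA (-1.59 ± 0.13, adjusted p = 4.03e-06). The second probe (A_52_P190647) gave -0.82 and -1.41, and its polysomal change did not pass with the dimmer spike-ins (-0.41, adjusted p = 0.0645). M was 0.56 ± 0.18 (adjusted p = 0.0369) and 0.60 ± 0.25 (adjusted p = 0.0848), both near the median of all probes. The first call was lost on leaving out any of 8 of the 12 arrays, all but replicate 2 of p_0h, replicates 1 and 2 of np_6h and replicate 1 of p_6h, and without replicate 3 of np_6h the second probe passed with an M of 0.81.

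Mxd4, a repressor of resting and differentiated cells, was the member whose RNA passed the test in neither fraction. It read 10.20, 10.37 and 10.21 in p_0h and 10.32, 10.45 and 10.44 in p_6h, and 11.22, 11.33 and 11.18 in np_0h and 11.25, 11.17 and 11.16 in np_6h. The groups overlapped in both fractions. The polysomal change of 0.14 ± 0.08 (adjusted p = 0.134) was below the 0.54 of the median probe and became -0.34, past the test, with the 75th percentile. Like Max, Mxd4 was lower in the polysomal pool at both times, by 0.99 at 0 h and 0.79 at 6 h.

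Mnt, the antagonist that most cell types express throughout, fell slightly. It read 11.54, 11.59 and 11.55 in np_0h and 10.85, 10.79 and 10.79 in np_6h, a 1.68-fold fall (-0.75 ± 0.07, adjusted p = 1.2e-05). In polysomal RNA it read 12.38, 12.59 and 12.53 at 0 h and 12.13, 12.09 and 12.17 at 6 h, a 1.30-fold fall (-0.37 ± 0.07, adjusted p = 0.00122) that became 0.03 with the dimmer spike-ins. The groups did not overlap in either fraction. Its M of 0.37 ± 0.10 (adjusted p = 0.0162) lay below the median of all probes, and it was -0.05 with the 75th percentile and -0.34 with quantile normalization.

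Mlx, the alternative partner, rose in both fractions. It read 8.12, 8.31 and 8.17 in np_0h, 9.77, 9.98 and 9.92 in p_0h, 9.16, 9.31 and 9.34 in np_6h and 11.55, 11.49 and 11.68 in p_6h. The polysomal signal rose 3.22-fold (1.69 ± 0.09, adjusted p = 1.55e-07) and the non-polysomal signal 2.10-fold (1.07 ± 0.09, adjusted p = 6.29e-06). Its M of 0.62 ± 0.13 (adjusted p = 0.00469) was 0.19 with the 75th percentile, which did not pass.

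Mga moved the other way between the pools. Probe A_52_P189030 read 6.42, 6.66 and 6.55 in np_0h and 7.09, 7.14 and 7.05 in np_6h, but 8.25, 8.61 and 8.45 in p_0h and 8.14, 7.99 and 8.23 in p_6h. The non-polysomal arrays were higher at 6 h and the polysomal arrays lower, without overlap in either. Probe A_51_P193270 read 5.78, 5.68 and 5.71 in np_0h against 7.12, 7.10 and 7.15 in np_6h, a 2.64-fold rise (1.40 ± 0.08, adjusted p = 3.92e-07). In polysomal RNA this probe read 7.42, 7.60 and 7.67 at 0 h and 7.76, 7.69 and 7.85 at 6 h, a change of 0.20 ± 0.08 that did not pass (adjusted p = 0.0528) and was -0.28, past the test, with the 75th percentile. The first probe's polysomal change of -0.31 ± 0.11 (adjusted p = 0.0293) was lost on leaving out replicate 2 or 3 of p_0h or replicate 1 or 2 of p_6h and was 0.09 with the dimmer spike-ins.

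M of the 2 bright Mga probes was -0.86 ± 0.15 (adjusted p = 0.00179) and -1.20 ± 0.11 (adjusted p = 4.6e-05), lower than all but 3.33% and 1.66% of the probes. By slide it was -0.77, -1.10 and -0.72 for the first and -1.01, -1.32 and -1.27 for the second. Under every alternative run M of both stayed below 0 and passed, with a range of -1.69 to -0.41. The third Mga probe (A_52_P474871), not well above background on any array, read 0.71 to 1.97 and gave an M of 0.29 ± 0.29 (adjusted p = 0.439).

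**Figure D2:**
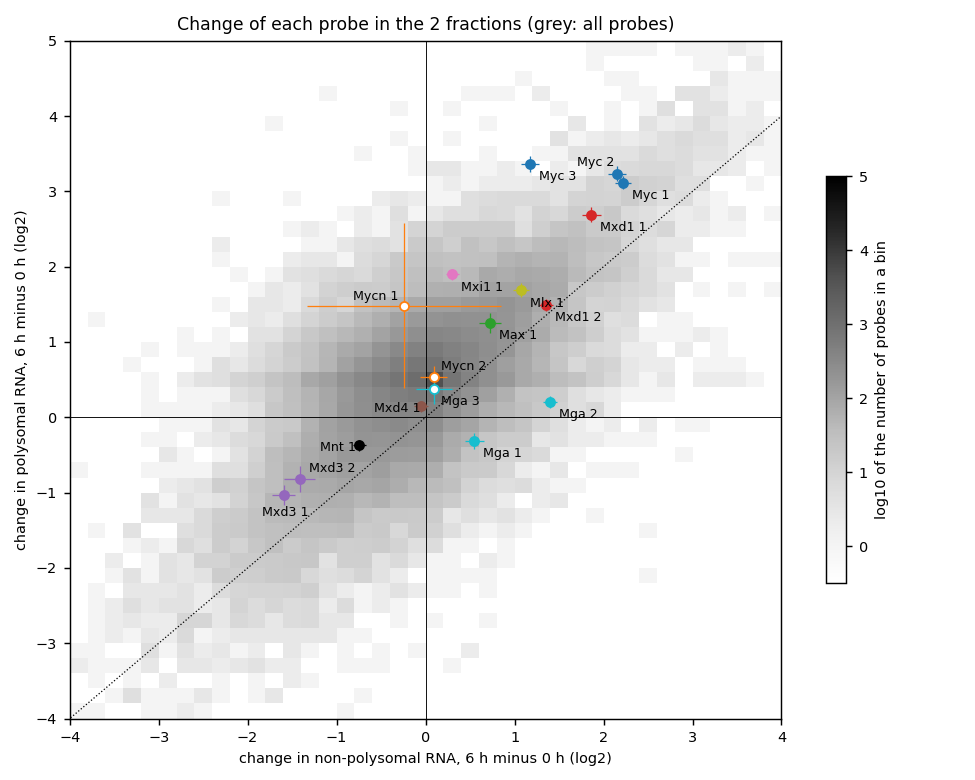
Change from 0 h to 6 h of each network probe in non-polysomal (horizontal) and polysomal RNA (vertical), in log2 units with standard errors, numbered by brightness within a gene, over the density of all probes in grey. Open circles are probes below background. Points above the dotted line have an M above 0, and the bright Mga probes lie below it. With 75th percentile scaling polysomal changes lie lower by about the difference of the medians, 0.54 against 0.05, which takes Mga probe 2 and Mxd4 below 0.

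**Figure D3:**
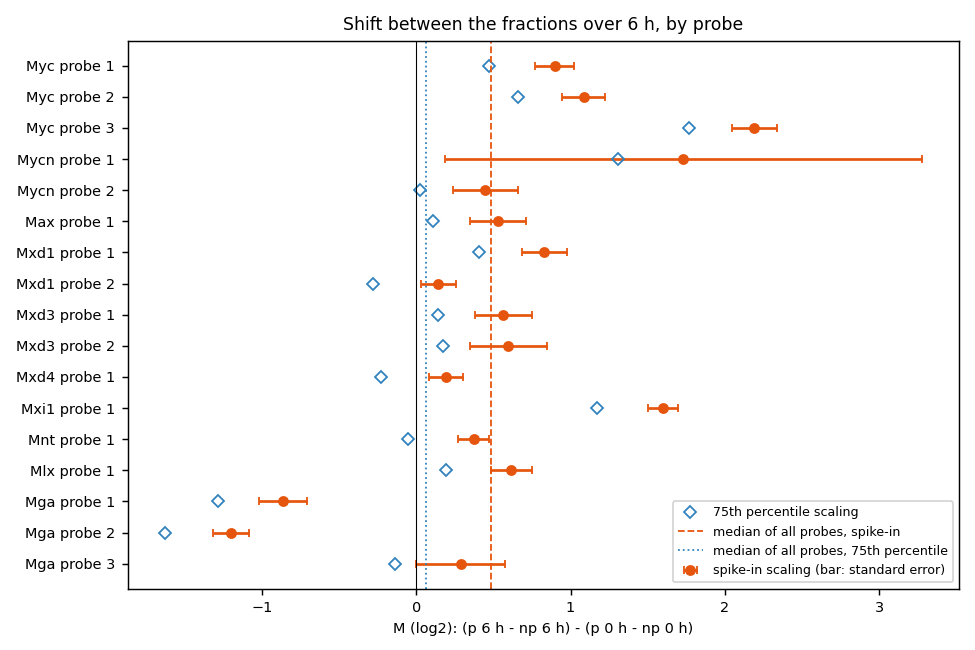
M of each probe (horizontal axis, log2) with spike-in scaling (filled, bars are standard errors) and with 75th percentile scaling (open). Dashed and dotted lines are the medians of all probes, 0.49 and 0.06. Myc, Mxi1 and the brighter Mxd1 probe stay above 0 and pass the test in both, and 2 Mga probes stay below 0. Max, Mlx, Mxd3 and Mycn also stay above 0 but do not pass with the 75th percentile. Mnt, Mxd4, the second Mxd1 probe and the third Mga probe change sign.

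The balance of Myc and the rest was read as the log2 ratio of the brightest probes on the same array, which no scaling by a constant can move. Since levels of different probes cannot be compared, only the change of a ratio over time has a meaning. For each of the 8 partners above background the 6 arrays of 6 h were compared with the 6 of 0 h within their fractions by an exact two-sided permutation test with 400 arrangements. In all 8 the ratio of these brightest probes was higher at 6 h, with no overlap in either fraction. The p was 0.005 before and after adjustment over the 8, the smallest that 400 arrangements allow. The test shuffled each pool separately, although by the methods both pools were cut from the same gradients. This p is therefore smaller than 3 replicates per time can bear out, and the 8 tests share the same Myc probe. Of all 33 pairs of a Myc probe and a partner probe above background, which were compared after the data were seen, 29 were higher at 6 h in both fractions without overlap. The other 4 were pairs of Myc probe A_52_P278549 with Mxd1, Mlx or Mga, and they differed in non-polysomal RNA.

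The ratio of Myc to Mxd3 rose by 3.98, to Mnt by 3.23, to Mxd4 by 2.62 and to Mga by 2.55, each as the mean of both fractions. It rose by 1.68 to Max, by 1.57 to Mxi1 and by 1.29 to Mlx. The rise against Mxd1 was the smallest, 0.39 or 1.31-fold, with 1.14 to 1.30 in p_0h and 1.62 to 1.72 in p_6h. With Myc probe A_52_P278549 this ratio to Mxd1 fell by 0.69 in non-polysomal RNA and rose by 0.67 in polysomal RNA, without overlap in either, so that no direction over both fractions can be given for Mxd1. Against the second Mxd1 probe the brightest Myc probe rose by 1.24. Against Mxi1 the ratio rose more in non-polysomal RNA (1.92) than in polysomal RNA (1.22), and the difference, -0.58, -0.85 and -0.68 by slide, had 1 sign on every slide. This order rests on the Myc probe, since with A_52_P278549 the ratio to Mxi1 rose by 0.87 in non-polysomal and by 1.47 in polysomal RNA. Against Mga it rose by 1.67 in non-polysomal and by 3.43 in polysomal RNA, a difference of 1.79, 1.85 and 1.64 by slide.

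**Figure D4:**
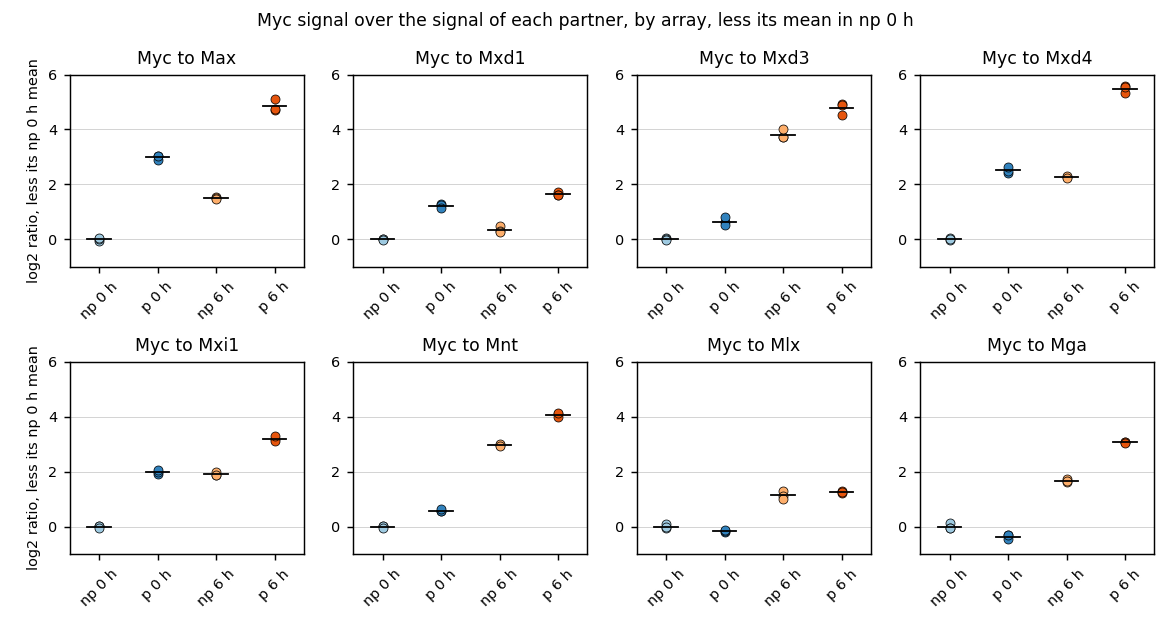
Log2 ratio of the brightest Myc probe to the brightest probe of each partner on every array (vertical axis), less its mean in np_0h, by group (horizontal axis). Points are arrays and lines are means of 3. In every panel the 6 h arrays lie above the 0 h arrays of the same fraction, by the least for Mxd1 and by the most for Mxd3.

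In which pool a member's RNA lay differed between the genes, and these values depend on the scaling. At 0 h 11 probes were higher in the polysomal pool and 3 lower, Max, Mxd4 and Mxi1, where 37.1% and 14.9% of all probes were. At 6 h 14 were higher and 2 lower, Max and Mxd4, where 60.0% and 9.96% of all probes were. All probes include many below background. Those well above background on every array of at least 1 group had a median of 0.76 at 0 h and 1.21 at 6 h. The members' medians of 0.88 and 1.14 lay near these, so the counts do not set the network apart from detected probes. With the 75th percentile, which sets the median of all probes at -0.74 and -0.63 in place of 0.15 and 0.68, 5 were higher and 6 lower at 0 h, where 24.0% and 51.3% of all probes were, and 4 higher and 8 lower at 6 h, where 23.9% and 47.1% were. Max and Mxd4 were lower in the polysomal pool at both times under all alternatives, and Mlx and the brighter 2 Myc probes were higher. The polysomal excess of Mga shrank from 1.89 and 1.84 at 0 h to 1.03 and 0.64 at 6 h, and with the 75th percentile it turned from 1.00 and 0.95 to -0.28 and -0.67.

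Of the family outside the members, Mlxip, the MondoA protein that senses glucose phosphate with Mlx, rose by 2.32 in polysomal and 1.44 in non-polysomal RNA with an M of 0.88 (adjusted p = 1e-04). Mlxipl (ChREBP), the lipogenic partner of Mlx, had an M of 0.66 (adjusted p = 0.173). Mycl had one of 0.05 (adjusted p = 0.946), which was -0.37 with the 75th percentile. Mlx and Mlxip thus moved the same way in both fractions.

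The genes of the machinery around Myc were taken as lists, and their M is read beside that of all probes, of which 32.1% were above 0 and 3.98% below (15.7% and 12.8% with the 75th percentile). All probes include many below background, whereas most probes of these lists were above it, and shares over detected probes alone were not computed. Of 18 probes of 9 coactivators 7 had an M above 0 and 6 below, with a median of -0.31, and with the 75th percentile 5 were above and 9 below. Wdr5, which presents histone H3 to methyltransferases and binds Myc, had an M of 1.01, Ruvbl2, an AAA helicase, one of 0.82, and Ep400, the ATPase of the Tip60 complex, one of -0.98. Kat2a (Gcn5), an acetyltransferase, had an M of 1.64 that did not pass with the 75th percentile. Of 8 probes of corepressors 2 were above 0 and 3 below under both scalings: Hdac2, the deacetylase, had an M of 2.18 and Sin3b, the scaffold that Mxd proteins bind, one of 1.31, while the 3 Ncor1 probes were at -0.88 to -0.54. The Hdac2 probe was well above background on 11 arrays only. Its M includes a non-polysomal change of -0.82 to a dim mean of 3.59 (SD 0.45) in np_6h. The second Sin3b probe (A_51_P159552) had an M of 0.32 (adjusted p = 0.0886), which was -0.11 with the 75th percentile. Its non-polysomal change was 1.09, where that of the first (A_52_P57526) was -0.35, so the probes of this gene disagree.

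Of 15 probes of genes for turnover of the Myc protein 2 had an M above 0 and 4 below, with a median of -0.37, and with the 75th percentile 1 was above and 10 below, with a median of -0.79. Aurka, a kinase that shields Mycn from its ligase, had an M of 1.46, Cip2a, an inhibitor of the phosphatase that acts on Myc, one of -1.17, and Huwe1, a ubiquitin ligase, one of -0.78. This Huwe1 probe (A_52_P205282) changed by -0.58 in non-polysomal and -1.36 in polysomal RNA. The brighter A_51_P355375 changed by 0.54 and -0.05 with an M of -0.60, so the Huwe1 probes disagree on the changes. In polysomal RNA Cip2a fell by 2.34. Of 16 probes of proteins that bind Myc mRNA 12 had an M above 0 and 1 below, with a median of 0.80, and with the 75th percentile 9 were above and 1 below. In polysomal RNA 14 of them rose and 0 fell, where 50.6% and 11.7% of all probes did, and with the 75th percentile 12 rose and 2 fell. Pcbp2 and Hnrnpc, which are tied to translation from the Myc leader, had an M of 1.62 and 1.61, Elavl1 (HuR) one of 0.94 and Igf2bp1, which guards the coding region, one of 0.83. The Pcbp2 probe with this M (A_52_P18798) changed by -0.30 in non-polysomal RNA, where A_52_P635718 changed by 0.43 with an M of 0.93. Another Elavl1 probe had an M of -0.47, so probes of Elavl1 disagree. The other Igf2bp1 probes had an M of 0.37 (adjusted p = 0.0468) and 0.34 (adjusted p = 0.0917). With the 75th percentile these turned to -0.05 (adjusted p = 0.731) and -0.08 (adjusted p = 0.671), so the first call was lost. The non-polysomal changes of these 2 probes were -0.42 and 0.52, so the Igf2bp1 probes disagree as well.

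Of 43 probes of 27 genes known to be activated by Myc 38 rose and 0 fell in polysomal RNA, with a median change of 1.34, where 50.6% of all probes rose and 11.7% fell. In non-polysomal RNA 26 rose and 10 fell, where 20.5% and 19.7% did, with a median of 0.99 against 0.04 for all probes. All 43 probes were well above background in at least 1 group, whereas these shares include many probes below it. The median change of detected probes was 0.53 in polysomal and -0.01 in non-polysomal RNA. With the 75th percentile 32 rose and 5 fell in polysomal RNA, where 22.5% and 21.0% of all probes did. Hk2, the hexokinase, rose by 4.59 and 4.48, Srm, spermidine synthase, by 2.97 and 1.98, and Rrp9, a nucleolar processing factor, by 2.96 and 1.91. These 3 genes were chosen after their values were seen. By M, 28 probes were above 0 and 4 below, where 32.1% and 3.98% of all probes were, with a median of 0.63 against 0.49. With the 75th percentile 21 were above and 7 below, where 15.7% and 12.8% were, with a median of 0.20. Npm1 (nucleophosmin), Hspd1, Fbl (fibrillarin) and Ncl (nucleolin), nucleolar proteins apart from the mitochondrial chaperonin Hspd1, had the largest M of the list at 2.59, 1.58, 1.55 and 1.25. The RNA of Npm1 rose by 1.34 in polysomal and fell by 1.25 in non-polysomal RNA. The Ncl probe with the M of 1.25 (A_52_P623337) fell by 0.27 in non-polysomal RNA, where A_52_P620748 rose by 1.22. The E-box stood in the windows of 8 of the 23 genes of this list that have one (34.8%), against 8.09% of all genes in the table and 9.94% of the genes on the array.

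Of 14 probes of 10 genes known to be repressed by Myc 7 rose and 5 fell in polysomal RNA, with a median change of 0.30, where 50.6% and 11.7% of all probes did. With the 75th percentile 5 rose and 7 fell there, with a median of -0.18, where 22.5% and 21.0% did. In non-polysomal RNA 5 rose and 8 fell, with a median of -0.35, where 20.5% and 19.7% did. Cdkn2b, the inhibitor p15 of Cdk4, fell by 0.93 and 2.38, while Cdkn1a, the inhibitor p21, rose by 0.95 in polysomal RNA and fell by 0.34 in non-polysomal RNA. Cebpa, the adipogenic regulator, rose by 1.20 in polysomal RNA, and Thbs1, a matrix glycoprotein, by 0.67 and 1.93 on the probe A_52_P337092. By M, Cdkn2b (1.46), Cdkn1a (1.29) and Cebpa (1.05) were above 0 and Thbs1 (-1.26) below. Another Thbs1 probe (A_52_P363951) had an M of -0.15 (adjusted p = 0.389) and rose by 1.85 in polysomal RNA, so its probes disagree. Genes of this list did not move 1 way in either fraction, and the E-box stood in the window of none of the 7 that have one.

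**Figure D5:**
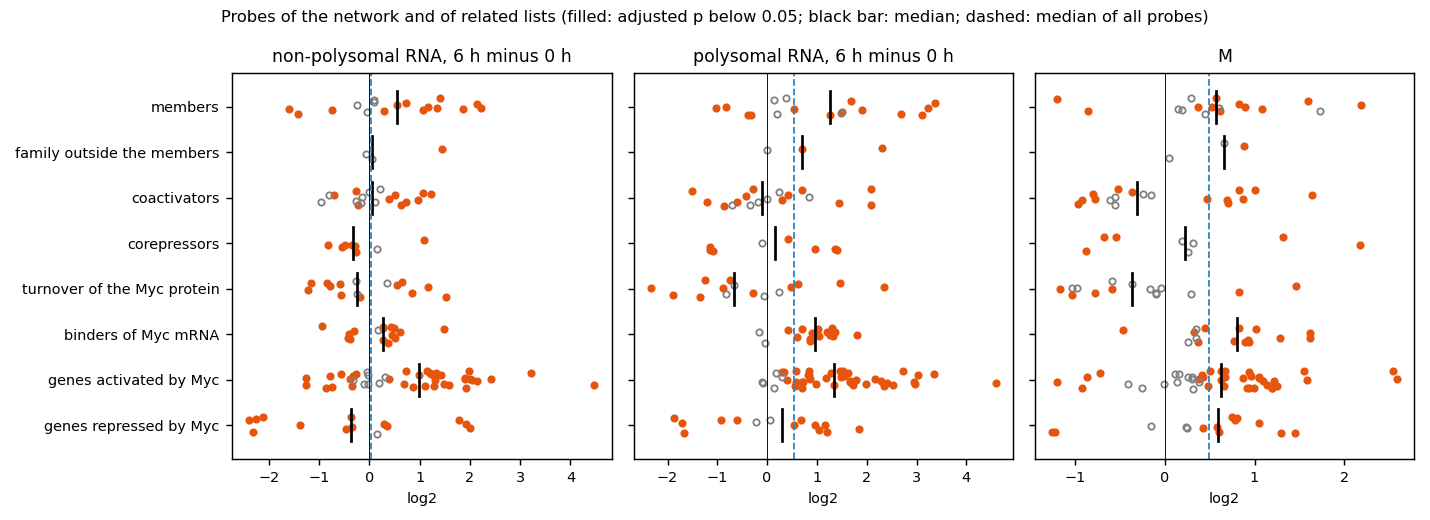
Change in non-polysomal RNA, change in polysomal RNA and M (horizontal axes, log2) of each probe of the network members and of the related lists (rows). Filled points passed at an adjusted p below 0.05, black bars are medians, and the dashed line is the median of all probes, 0.04, 0.54 and 0.49. Genes activated by Myc lie mostly to the right of it in both fractions, with spike-in scaling and, by their medians of 0.93 and 0.85, with the 75th percentile.

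Over the 12 arrays the signals most like the brightest Myc probe, among 19439 probes with a symbol, were those of Coq10b (r = 0.9994), Hspb1 (0.9992), Slc25a32 (0.9991), Timp1 (0.9990) and Mtrr (0.9990). These are correlations across 4 groups that share their arrays, and they are given as a description without a test. Coq10b, a coenzyme Q binding protein, changed by 2.84 and 2.03 in polysomal and non-polysomal RNA and Hspb1, a small heat shock protein, by 4.66 and 3.09. Of the other members, the dimmer Mxd1 probe was the most like Myc (r = 0.993). Mlx (0.946), the brighter Mxd1 probe (0.945), Mxi1 (0.844) and the bright Mga probes (0.808 and 0.587) came next. Mycn probe A_52_P536494 (0.78) and the third Mga probe (0.70), not well above background on any array, also reached a high r. An r of that size thus needs no detected signal. Max (0.078) and Mnt (0.196) followed Myc little, and Mxd3 (-0.175 and -0.039) and Mxd4 (-0.521) did not.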

How the data were processed

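RNA of 3T3-L1 cells was measured on 12 Agilent one-colour arrays (4 groups, 3 replicates, which the methods call biological). The deposited scanner files hold a background-subtracted intensity per spot (Feature Extraction 10.7.1.1), not normalized between arrays. The authors' table holds log2 values, which equal the averaged log2 median pixel after adding 1 constant for each array. The log2 intensity was used here. Spots marked as outliers were left out (484 probe values missing), spots of a probe were averaged, and each array was shifted by 10 spike-in transcripts. Probes were named through RefSeq accessions (64.8% of 41174 matched). Groups were compared with limma 3.58.1 in R 4.3.3 over all 12 arrays and 41155 probes with Benjamini-Hochberg adjustment, after a test on simulated data. Calls have an adjusted p below 0.05.

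Members and lists were chosen with earlier results of these data known. Named genes are all member probes, up to 4 genes per list with the largest absolute M among those that passed, and the 5 most like Myc. A gene named by this rule is not reported here. Samples were grouped by their labels. Alternatives were 75th percentile scaling, quantile normalization, the dimmer 5 spike-ins, the authors' values, a filter on dim probes, outlier spots kept, the replicate block, all probes of a gene in the ratios, leaving out each array and, chosen after seeing the data, a normexp correction and the other Myc probes in the ratios. Signal over background and the number of arrays limit the precision. Coordinates of probes were not used here.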

Additional observations from a re-analysis of the deposited data

Results flagged for a closer look

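The polysomal to non-polysomal difference of 11 member probes was not the same at 0 h and at 6 h, by the interaction term M of the limma fit at an adjusted p below 0.05 (32.1% of all probes passed above 0 and 3.98% below 0). The difference was larger at 6 h for Myc (M = 0.90, 1.08 and 2.19 for its 3 probes), Mxi1 (1.60), the brighter Mxd1 probe (0.83), Mlx (0.62), the brighter Mxd3 probe (0.56), Max (0.53) and Mnt (0.37), and smaller at 6 h for 2 Mga probes (-0.86 and -1.20). M had the same sign on all 3 slides for each of the 11. The median M of all probes was 0.49, so the values of Max, Mxd3, Mlx and Mnt lie within 0.13 of the shift that all probes share.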

How the results depend on the processing

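Of the calls, 7 of 11 in M, 9 of 13 in polysomal change, 13 of 13 in non-polysomal change, 8 of 14 at 0 h and 6 of 16 at 6 h stood with their sign under all 20 alternatives. Member counts moved by more than 1.5 times in these cases. With the 75th percentile M was higher for 5, the 0 h difference higher for 5 and lower for 6, and the 6 h difference higher for 4 and lower for 8. With quantile normalization M was higher for 5 and lower for 4, and the 6 h difference higher for 6 and lower for 6. With the dimmer 5 spike-ins the polysomal change was lower for 1.

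Single probes turned sign as follows, the 75th percentile first and quantile normalization after it where both did. For M these were Mxd1 probe 2 (-0.28, -0.51), Mxd4 (-0.23, -0.22), Mnt (-0.053, -0.34) and Mga probe 3 (-0.14, -0.045), and Mycn probe 2 with quantile normalization (-0.026). For the polysomal change these were Mxd4 (-0.34, -0.43), Mga probe 2 (-0.28, -0.14) and Mga probe 3 (-0.10, -0.0063), and with the dimmer spike-ins Mnt (0.029) and Mga probe 1 (0.089). For the 0 h difference these were Mxd1 probe 1 (-0.58, -0.59) and Mxd3 probe 1 (-0.0059, -0.014), and with the 75th percentile Myc probe 3 (-0.10), Mycn probe 2 (-0.82, and -0.011 with the dimmer spike-ins) and Mga probe 3 (-0.54). For the 6 h difference these were Mycn probe 2 (-0.80, -0.0026), Mxd1 probe 1 (-0.17, -0.24), Mxi1 (-0.17, -0.20), Mga probe 1 (-0.28, -0.13) and Mga probe 2 (-0.67, -0.49), with the 75th percentile Mycn probe 1 (-0.46), Mxd1 probe 2 (-0.27) and Mga probe 3 (-0.68), and with quantile normalization Mnt (-0.095). These scalings set the median of all probes elsewhere by construction.

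Leaving out single arrays moved no count of members by more than 1.5 times. It turned Mycn probe 1 in non-polysomal change (-1.12 to 1.13) and at 0 h (-1.74 to 0.51), and Mycn probe 2 at 0 h (-0.049 to 0.19). The 0 h difference of Mxd1 probe 1 was lost on leaving out replicate 1 or 3 of np_0h or replicate 2 or 3 of p_0h (0.23 to 0.30), and the 6 h difference of Mga probe 3 on leaving out replicate 2 of np_6h or of p_6h (0.40 to 0.58).

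Same-numbered samples shared a slide, and their deviations correlated at -0.10 to 0.42 (median 0.07), with 4 of 18 pairs above 0.1. Samples of different numbers correlated at -0.38 to 0.21 (median -0.04), with 6 of 36 pairs above 0.1. Correlations this weak cannot decide whether the numbers pair the samples, and the main fit did not pair them. With the replicate block M was higher for 8 members in place of 9, and among 85 values (17 probes in 5 comparisons) 1 call was lost, the M of Max (adjusted p = 0.0526).

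The normexp correction on the mean signal could not be run, as the files give the median pixel, and a fit over all spots failed on 3 arrays. A normexp fit that omits spots with a non-uniform background, an alternative chosen after seeing the data, turned the non-polysomal change of Mxd4 (0.0043) and the 0 h difference of Mga probe 3 (-0.0024). Another such alternative, the dimmest Myc probe in place of the brightest, turned the ratio of Myc to Mxd1 (-0.0090) and left 7 of 8 partners called. The cause of these changes was not tested. Signal over background limits Mycn and the third Mga probe.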
